A study of Mus musculus with 2 samples.

Results

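Probes on a mouse miRNA array that carry a run of 8 or more strictly alternating bases (A with C, or G with T) were examined, leaving out the repeat-rich families of miR-669, miR-467, miR-466 and miR-297. Of 3105 miRNA probes, 14 met this rule, and they belong to 7 miRNAs: mmu-miR-574-5p, mmu-miR-1187, mmu-miR-3082-5p, miR-32-3p, miR-672-5p, miR-3097-5p and miR-6348. All 14 runs alternate A and C, and none alternates G and T. Each of the 7 miRNAs has 2 probes that differ by 1 base, and both carry the run, so the array holds no probe without a run for any of them. The set was chosen by probe sequence, but it was selected on knowledge of the KO minus WT differences, so the signals and differences of its members are given as a description, with no test.

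The 2 arrays held RNA of c-Kit+ Sca1+ Lineage- cells sorted from adult bone marrow of mice with a C57/BL6 background, a fraction that contains hematopoietic stem cells and early progenitors. One sample (WT) had the genotype CreERT, Tif1bw/w and the other (KO) the genotype CreERT, Tif1bf/f, so both carried the inducible Cre recombinase. Tif1b (also Trim28 or KAP1) acts as a corepressor: zinc finger proteins bring it to retroelements and to many genes, which it keeps silent. The sources used here do not give when or how recombination was induced, how many animals were pooled or which promoter drives CreERT. The array has no probe for Tif1b, so its loss was not checked.

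A miRNA is cut from a hairpin precursor, and the arm it comes from gives the suffix 5p or 3p. Bases 2 to 8, the seed, do most of the pairing with target mRNAs. An array probe is the reverse complement of a part of the mature miRNA, so a run of A and C in a probe stands against alternating G and U in the miRNA. miR-574-5p is known in human lung cancer cells as a decoy for the RNA-binding protein CUGBP1, and miR-32-3p is the opposite arm of the more widely studied miR-32-5p.

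The 6 probes of the 3 brightest miRNAs follow, 5′ to 3′ with the longest run in capitals. They are shown because their run extends to the last base, and in each pair the added base lengthens it.
miR-574-5p, shorter: acacactCACACACACA
miR-574-5p, longer: acacactCACACACACAC
miR-1187, shorter: ttacacacatACACACAC
miR-1187, longer: ttacacacatACACACACA
miR-3082-5p, shorter: acacagACACACACA
miR-3082-5p, longer: acacagACACACACAC

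The longer probe of each of the 4 dim miRNAs is shown for contrast, since its run ends before the last base.
miR-32-3p: aatatCACACACACtaaattg
miR-672-5p: tCACACACAgtacacca
miR-3097-5p: tggACACACACttccc
miR-6348: ACACACACcttataaaggc

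The mature sequences of the 3 brightest miRNAs and of miR-574-3p, the opposite arm of miR-574-5p, are given from RefSeq (GRCm38.p6) with the seed in capitals. All 7 miRNAs had an entry there, and no seed is shared between any of them.
miR-574-5p: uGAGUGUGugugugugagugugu
miR-1187: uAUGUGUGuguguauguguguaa
miR-3082-5p: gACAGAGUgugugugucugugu
miR-574-3p: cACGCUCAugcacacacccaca

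The 2 arms of Mir574 lie on chromosome 5, plus strand, with miR-574-5p at 64970328 to 64970350 and miR-574-3p at 64970364 to 64970385. Both are inside the annotated bounds of Fam114a1 and Tlr6. miR-1187 lies on chromosome 5 at 82798964 to 82798986, minus strand, outside the bounds of other annotated genes. miR-3082-5p lies on chromosome 17 at 25831406 to 25831427, minus strand, inside the bounds of Stub1 and Jmjd8. The table used gives gene bounds only, so exons and introns were not told apart. The longest G and U run was 13 bases in miR-574-5p, 11 in miR-1187, 10 in miR-3082-5p, 9 in miR-32-3p and 8 in the other 3 members. The hairpin of Mir1187 holds an A and C run of 19 bases besides its G and U run of 11.

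Signals below are the mean processed intensity of a probe's spots on a linear scale, without spots marked as outliers. They are in arbitrary units and can fall below 0, because the scanner software subtracted a fitted surface. A probe is called measured on an array where over 50% of its kept spots were well above background. The lowest measured probe was at 17.7 on WT and 21.1 on KO, and the negative control spots had a mean of 6.62 ± 3.88 (SD, n = 983 spots) on WT and 6.99 ± 3.996 (SD, n = 973 spots) on KO. The KO array was the dimmer one: over the 113 probes measured on both arrays, the 75th percentile was 213 against 487 on WT, a ratio of 0.437. No spot was saturated. There was 1 array per genotype, so errors are between spots of an array and no difference has a replicate check.

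Of the 14 run probes, 3 were measured on WT and 5 on KO, whereas 5.19% of all probes were measured on WT and 3.9% on KO. The 3 were both probes of miR-574-5p and the longer probe of miR-1187, and on KO both probes of miR-3082-5p joined them. The remaining 9 were measured on neither array. Before any scaling, 11 of the 14 were brighter on KO, against 40.3% of all probes. The median signal of the 14 was 5.67 on WT and 11.2 on KO, and the median over all probes was -1.82 on WT and -2.09 on KO. The members' median KO minus WT signal was 3.62 units, with a range of -2.28 to 16.7, and that of all probes was -0.38.

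mmu-miR-574-5p was the brightest member. Its longer probe had a mean of 40.0 ± 6.69 on WT (SD, n = 19 spots) and 37.8 ± 5.14 on KO (SD, n = 17 spots). The spots of the longer probe ran from 29.4 through a median of 39.0 to 55.9 on WT and from 28.3 through 37.7 to 45.9 on KO, so the arrays overlapped over most of their range. Of 16 spot positions kept on both arrays, 5 were brighter on KO.
The shorter probe of miR-574-5p had 21.0 ± 3.92 on WT (SD, n = 20 spots) and 28.7 ± 4.07 on KO (SD, n = 17 spots). It was brighter on KO at 14 of 17 positions, so the 2 probes of this miRNA went different ways before scaling. Divided by each array's 75th percentile, both were higher on KO, the longer by 1.11 on the log2 scale (spot SD 0.30) and the shorter by 1.64 (spot SD 0.39). The median of both was 1.37, or 2.59-fold.

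mmu-miR-1187 had 21.7 ± 3.08 on WT (SD, n = 19 spots) and 26.7 ± 6.96 on KO (SD, n = 20 spots) at its longer probe. The spots lay between 15.4 and 26.6 on WT, with a median of 22.6, and between 13.7 and 39.3 on KO, with a median of 25.6. The KO spots thus spread to both sides of the WT spots, and 13 of 19 positions were brighter on KO. The scaled difference of this probe was 1.49 (spot SD 0.52), or 2.81-fold. The shorter probe, at 14.1 on WT and 16.8 on KO, was measured on neither array.

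mmu-miR-3082-5p had the highest KO minus WT signal among the members. Its longer probe had 17.9 ± 3.80 on WT and 31.9 ± 6.65 on KO (SD, n = 20 spots each), and its shorter probe 6.03 ± 2.93 on WT (n = 19 spots) and 22.7 ± 6.03 on KO (n = 20 spots). KO was brighter at 20 of 20 positions of the longer probe and 19 of 19 of the shorter. The spots of the shorter probe did not overlap, with a highest WT spot of 11.9 and a lowest KO spot of 12.9. Neither probe was measured on WT, so both folds rest on WT signals near the background. After scaling, KO was 4.09-fold higher for the longer probe and at least 2.93-fold higher for the shorter. Each is the KO signal over the higher of the lowest measured WT probe and the probe's own WT signal. For the longer probe its own WT signal (17.9) was the higher, against 17.7, so its value is a plain ratio and not a lower bound. In rank of KO minus WT signal among 3105 probes, the shorter stood 18 from the top and the longer 25. The opposite arm, miR-3082-3p, had 2 probes, at -6.27 and -4.62 on WT and at -6.23 and -6.22 on KO, all below the negative controls.

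Scaled differences are relative to a factor that decides most of their size. After scaling, the KO signal of all 3 run probes measured on both arrays was at least 2-fold higher, against 14.2% of the 113 probes, and their median was 1.49 against 0.36 over the 113. This contrast, and the ranks below, partly restate the filter. The lowest measured KO probe was at 21.1, and the scaling ratio was 0.437. Probes as dim on WT as the shorter probe of miR-574-5p (21.0) or the longer probe of miR-1187 (21.7) thus join this set only if at least 2-fold higher after scaling. The longer probe of miR-574-5p, at 40.0 on WT, could join below 2-fold, but still only with a KO signal above that of WT after scaling. Without scaling the median of the 3 was 0.30 and that of the 113 was -0.83. Relative to the median probe, the 3 stood at 0.75 (longer probe of miR-574-5p), 1.13 (miR-1187) and 1.28 (shorter probe of miR-574-5p). Of 72 miRNAs measured on both arrays, miR-1187 ranked 5 and miR-574-5p ranked 6 from the highest difference, and 13.9% of the 72 were at least 2-fold higher.

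The other 4 members stayed dim on both arrays. The 2 probes of miR-32-3p had 5.67 and 5.67 on WT and 11.05 and 11.4 on KO, the latter above the highest of 7 negative control probes (9.89). KO was brighter at 14 of 16 and 16 of 18 positions. The probes of miR-6348 had 0.80 and 2.97 on WT and 4.65 and 6.18 on KO, brighter at 13 of 17 and 14 of 18 positions. Those of miR-672-5p, a miRNA encoded inside the bounds of Nexmif on the X chromosome, were at -0.01 and -0.25 on WT and 1.68 and 3.13 on KO. miR-3097-5p, inside the bounds of Rgs12, was lower on KO, at -4.44 and -3.82 on WT and -5.36 and -4.47 on KO. The signals of miR-6348, miR-672-5p and miR-3097-5p lie below the negative control mean on both arrays, so no fold is given for them.

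Grouped by the length of the run, the members' signals overlapped between neighbouring lengths of 8 and 9. The 7 probes with a run of 8 spanned -4.44 to 14.1 on WT and -5.36 to 16.8 on KO. The 4 with a run of 9 spanned 5.67 to 21.7 on WT and 11.05 to 26.7 on KO. The 2 with a run of 10 were at 17.9 and 21.0 on WT and 28.7 and 31.9 on KO, and the 1 with a run of 11 was at 40.0 and 37.8. The order was not strict: on WT the longer probe of miR-1187, with a run of 9, was brighter than both probes with a run of 10. Probes differ in how well they bind, so these are levels of probes and not of RNAs. The points share sequence, since each miRNA gives 2 nested probes, and run length moves with base composition and with the place of the run.
The 6 probes whose run reaches the last base held 83.3% to 94.4% A and C, and the other 8 held 66.7% to 82.4%. On KO the 6 spanned 16.8 to 37.8 and the 8 spanned -5.36 to 11.4, with no overlap. On WT the 6 spanned 6.03 to 40.0 and the 8 spanned -4.44 to 5.67, again with no overlap. This split by the end of the run was chosen after the values were seen. Probes of the left-out families with an A and C run to the last base fell on both sides of it, from -3.62 to 73.1 on KO.

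In 3 pairs the longer probe adds a base that lengthens the run, and it was the brighter of the pair on both arrays. This is common on the array. Among nested pairs of other miRNAs with both probes measured, the longer was the brighter in 56 of 60 on WT and 36 of 41 on KO. In signal units the longer probe exceeded the shorter on WT by 19.0 for miR-574-5p, 11.8 for miR-3082-5p and 7.62 for miR-1187, and on KO by 9.11, 9.27 and 9.86 in the same order. For the 4 members whose added base does not lengthen the run, all dim, it was -0.25 to 2.18 on WT and 0.33 to 1.53 on KO. Over 1851 nested pairs of other miRNAs, most of them dim, the median was 1.09 on WT and 0.93 on KO. The longer probe was the brighter in 1276 of these on WT and 1248 on KO. As a ratio the order turned, for the pairs with both probes measured. From the shorter to the longer probe of miR-574-5p, 10 to 11 bases of run, the signal rose 1.90-fold on WT and 1.32-fold on KO. In 60 pairs of nested probes of other miRNAs with both probes measured on WT, the median ratio was 3.07, with quartiles of 1.92 and 4.78, and in 41 such pairs on KO it was 2.69, with quartiles of 1.69 and 4.14. The pair of miR-3082-5p had a ratio of 1.41 on KO, where both its probes were measured. With probes that were not measured, the ratio was 2.96 for miR-3082-5p on WT, and for miR-1187 it was 1.54 on WT and 1.59 on KO. On WT, 15 of the 60 pairs had a ratio below that of miR-574-5p. On KO, 8 of the 41 pairs had a ratio below that of miR-574-5p, and 8 had one below that of miR-3082-5p. These are ratios of probe brightness and not of RNA levels.

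Just outside the rule stood 11 probes with a run of exactly 7, from miR-574-3p, miR-1946a, miR-206-3p and miR-294-3p. The 4 probes of miR-574-3p, with a G and T run, were all brighter on KO, and they are shown with the run in capitals.
Shortest: tgtggGTGTGTG
Next: tgtggGTGTGTGc
Next: tgtggGTGTGTGca
Longest: tgtggGTGTGTGcat
From shortest to longest they had -2.24, -2.81, 0.52 and -3.19 on WT and 14.7, 16.3, 17.5 and 22.8 on KO. All 4 were thus below the negative control mean on WT and above the highest negative control probe on KO, and KO was brighter at 9 of 10, 10 of 10, 10 of 10 and 8 of 8 positions. The longest ranked 2 of 3105 probes by KO minus WT signal. None was measured on KO by the rule above, and the longest, with 4 of 8 spots well above background, was exactly at its limit, so no fold is given. The software's own summary detected miR-574-3p on KO, with a total gene signal of 10.1, and listed it at the floor of 0.1 on WT. In the same summary miR-574-5p was at 17.3 on WT and 18.8 on KO, miR-1187 at 10.1 and 12.3, and miR-3082-5p at 5.05 and 15.4, while the other 4 members were at the floor on both arrays. The remaining 7 probes with a run of 7 differed by -2.20 to 1.91 units, and all were dim.

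Run probes of the left-out families give the closest comparison. Of 11 such probes with an A and C run, 8 were brighter on KO before scaling, with a median of 1.40 on WT and 3.49 on KO. Of 50 with a G and T run, 49 were brighter on KO, with a median of 0.60 on WT and 8.45 on KO, and 5 were measured on KO and none on WT. Over all probes, 40.3% were brighter on KO before scaling, 3.9% were measured on KO and 5.19% on WT. The longest A and C runs on the array, 15 and 16 bases in miR-466i-5p, were at 92.9 and 114 on WT and 61.4 and 73.1 on KO. They were thus dimmer on KO before scaling, with scaled differences of 0.60 and 0.55, below those of all 3 run probes of miR-574-5p and miR-1187 measured on both arrays. On KO, 7 family probes with a G and T run of 12 spanned 5.46 to 26.1, 5 with one of 11 spanned 0.90 to 24.6, and 3 with an A and C run of 9 spanned 0.93 to 1.60.

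Members also share stretches with other probes. A stretch of 10 identical bases with a probe of another miRNA was found for both probes of miR-574-5p, miR-1187, miR-32-3p and miR-3097-5p and for the longer probe of miR-3082-5p. For the longer probe of miR-574-5p these were probes of 3 miRNAs, namely miR-3082-5p, miR-32-3p and 1 miRNA of the left-out families. For the longer probe of miR-1187 they were probes of 4 miRNAs, all of those families. The probes of miR-672-5p and miR-6348 shared no such stretch. How far the members' signals come from RNAs other than their own was not tested.

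Probes rich in A and C but without a run are set beside the members here, since run probes are rich in both bases. Of 104 probes outside the families with at least 80% A and C and no A and C or G and T run of 8, 33 were brighter on KO, or 31.7%. Among these, 12 were measured on both arrays, with a median log2 difference of 1.10. After scaling, 7 of the 12 had a KO signal at least 2-fold higher, against 14.2% of the 113 probes measured on both arrays. Of the 12, 6 belong to the let-7 family and miR-98, and 3 of these 6 were at least 2-fold higher. Outside the families, 56.7% of 30 probes with an A and C run of 6 were brighter on KO before scaling and 29.5% of 61 with a run of 5, on either side of the 40.3% of all probes. Runs of at least 6 in other base pairs gave 22 of 28 for A and G, with a median KO minus WT signal of 1.17, 7 of 39 for C and T, with a median of -1.18, 4 of 10 for A and T and 0 of 2 for C and G.

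The labelled cell fraction was checked against a short list of marker miRNAs. miR-130a-3p, miR-196b-5p, miR-10a-5p, miR-155-5p and miR-126-3p, known in stem and progenitor cells, had a measured probe on both arrays, and so did miR-142-3p, found in all blood cells. The other listed marker of all blood cells, miR-142-5p, was measured on WT only, with a highest probe of 38.6 on WT and 3.18 on KO. miR-125a-5p and miR-125b-5p, also markers of stem cells, were measured on neither array, and miR-99a-5p on WT only. miR-150-5p of mature lymphocytes, miR-451a and miR-144-3p of erythroid cells and the 4 markers of other tissues were measured on neither array. miR-223-3p of granulocytes and monocytes was at 3726 on WT and 63.6 on KO at its brighter probe, and miR-142-3p at 658 and 137. Both markers were dimmer on KO before scaling, and their part in the members' differences was not tested. In sorted cells, a different mix of cells and a different RNA content per cell cannot be told apart.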

How the data were processed

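The authors measured small RNA on 1-colour Agilent arrays, with Cyanine 3 labelling of 100 ng of total RNA per the labels' protocols, and deposited spot intensity values. The submitters' processing notes name Agilent Feature Extraction 10.7.3 as the software. An additive spatial trend was subtracted, and neither further background correction nor normalization between arrays was applied, per the file headers. The value table's intensity matched the software's total gene signal within 0.1% for all 7 members on both arrays.

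Outlier spots were left out (3.57% of 280 member spots on WT, 6.07% on KO), the mean of each probe was scaled to the 75th percentile of the 113 probes that were measured on both, and log2 differences are KO minus WT. The spot SD is that of the log2 ratio over shared spot positions. The members, lists and rules were chosen with earlier results of these data known. The naming rule took the members, their opposite arms and any miRNA with a measured probe of run 7, of which there was none. Other miRNAs with a run of 7 and miR-466i-5p were named after their values were seen. Alternatives covered scaling, background correction (normexp, offset 50), spot summary, outlier spots, the filter on dim probes and the run length, and some were added after the data were seen. The run search and the differences were tested on simulated data. Python 3.11.15, numpy 2.4.6, pandas 2.3.3, R 4.3.3 and limma 3.58.1 were used. The number of arrays, 1 per genotype, limits the precision.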

Additional observations from a re-analysis of the deposited data

How the results depend on the processing

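No paired analysis was possible because there is only 1 array of each genotype. The median scaled difference of the run probes measured on both arrays (1.49) was 0.40 with the 75th percentile over all probes, 0.30 without scaling, 1.04 with normexp and 2.09 with no filter on dim probes (10 probes). It stayed above 0 under all 12 alternatives. Another scaling factor moves every probe alike: the median over the 113 probes went from 0.36 to -0.73 with the percentile over all probes and to -0.83 without scaling. With normexp it was 0.46, and the cause of the normexp shift was not tested. Leaving out the filter adds dim probes, and the median over 864 probes was then 0.95. With a minimum run of 6, which takes in 71 probes, 5 were measured on WT, against 5.19% of all probes. Of the 71, 44 were brighter on KO, against 40.3% of all probes, and the median signals were -1.41 on WT and 0.39 on KO. With a minimum run of 10, which leaves 3 probes, 3 were measured on KO, against 3.9% of all probes. The medians were 21.0 and 31.9, and 2 were brighter on KO. With normexp, whose offset is added to each signal, the medians were 72.3 and 75.7. The count of 11 brighter probes became 10 to 12 under other background corrections and spot summaries, chosen after the data were seen, while the share of all probes brighter on KO ran from 10.5% with normexp to 57.3% with the local background subtracted. The ratio for the longer probe of miR-3082-5p was 1.79-fold without scaling, 1.92-fold with the 75th percentile over all probes and 2.27-fold with normexp. miR-574-5p was at 0.18 and miR-1187 at 0.30 without scaling. The signals lie close to the background, which limits every fold given.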
